A study of Mus musculus with 2 samples.

Results

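The genes described here encode 9 RNA-binding proteins of paraspeckles, the nuclear bodies that assemble on the long noncoding RNA Neat1. They are Sfpq, Nono and Pspc1 of the DBHS family, Ewsr1 and Taf15 of the FET family, and Rbm14, Tardbp, Matr3 and Dazap1. They were chosen by name, and every probe set (the group of short probes that reads 1 transcript region) paired with exactly 1 of these symbols was kept. That gave 32 probe sets of the 34958 with 1 symbol, and 9 of 18194 genes. A further 1 probe set, paired with Rbm14 and other symbols at once, was left out. Expression was measured on Affymetrix Mouse430_2 arrays in mouse embryonic fibroblasts (MEFs), connective tissue cells grown out of dissociated embryos. The groups were wildtype mice and Malat1 knock-out mice, which lack the abundant nuclear RNA Malat1, with 1 array each. Both groups were of strain C57BL/6, both came from embryos at day 13.5, and both were kept untreated for 2 weeks in culture. The knockout allele, the number of embryos behind each culture and whether they were pooled were not given in the sources used here. With 1 array per genotype no difference has a replicate check and none carries a p-value.

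DBHS proteins pair with each other through a shared core and coil along Neat1, and Sfpq and Nono are needed for paraspeckles to form. FET proteins bind RNA and DNA, carry a disordered low-complexity domain that can drive condensation, and take part in transcription and splicing. Malat1 and Neat1 are neighbouring genes whose RNAs mark adjacent bodies, nuclear speckles and paraspeckles.

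Taf15 was the member whose signal differed most between the arrays, so its promoter from RefSeq (GRCm38.p6) is shown beside that of Ewsr1, the other FET member. Each sequence runs from 250 bases before to 50 after the annotated start of transcription, 5′ to 3′ on the gene's strand. Capitals mark the CCAAT box (CCAAT), the GC box (GGGCGG) and the palindrome known from promoters bound by the factor NRF1 (GCGCA and GCGC with any 1 base between them), each searched on both strands. The Taf15 window lies at chr11:83472858-83473157 on the plus strand and the Ewsr1 window at chr11:5099047-5099346 on the minus strand.
Taf15: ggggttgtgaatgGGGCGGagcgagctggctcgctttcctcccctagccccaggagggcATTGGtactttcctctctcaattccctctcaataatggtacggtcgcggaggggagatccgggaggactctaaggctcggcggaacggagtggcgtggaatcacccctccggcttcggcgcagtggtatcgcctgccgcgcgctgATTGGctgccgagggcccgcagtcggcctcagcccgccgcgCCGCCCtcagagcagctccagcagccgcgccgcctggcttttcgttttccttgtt
Ewsr1: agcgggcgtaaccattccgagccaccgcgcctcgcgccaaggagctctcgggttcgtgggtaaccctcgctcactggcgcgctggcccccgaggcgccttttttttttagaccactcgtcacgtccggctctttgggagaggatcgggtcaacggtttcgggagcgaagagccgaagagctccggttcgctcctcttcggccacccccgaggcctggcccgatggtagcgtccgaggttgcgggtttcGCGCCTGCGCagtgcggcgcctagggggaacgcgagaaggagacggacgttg
The Taf15 window held 2 CCAAT boxes and 2 GC boxes, with 65.7% G and C, and the Ewsr1 window held none of either, 1 NRF1 palindrome at the start site and 66.3% G and C. No motif overlapped another in these windows. Promoters of 8 members were found in the table. Of these, 5 held CCAAT, against 37.4% of 32851 promoters of the same length, and 4 held GGGCGG, against 35.7%. The NRF1 palindrome was in 4 of the 8 (Pspc1, Ewsr1, Rbm14 and Dazap1), against 4.60% of all promoters. Those 4 windows held 57.0% to 73.0% G and C, where the median over all promoters was 52.7%. The shares over all promoters, that for GGGCGG included, were not matched for G and C. The E-box CACGTG was in 1 of the 8 (7.15% of all), and TATAAA (13.6%), the ETS core CCGGAAG (8.86%) and the cyclic AMP element TGACGTCA (1.79%) were in 0 of the 8. A match is a description of the letters in the window.

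The arrays were first checked against their labels. The brightest Malat1 probe set read 9.80 on the wildtype array and 4.53 on the knockout array on the log2 scale, at least 20.6-fold lower. A probe set counted as measured at or above the floor, each array's median signal over non-control probe sets (5.39 in the wildtype, 5.44 in the knockout), and a value under it gives a bound only. All 10 fibroblast markers of a fixed list were measured on both arrays. Sex-linked RNAs separated the arrays in the same way as genotype: Xist was at least 68.5-fold higher in the knockout, and Eif2s3y, Uty and Kdm5d, all Y-linked, were above the floor in the wildtype alone. Sex and genotype therefore cannot be told apart here. The 18 spike-in controls of hybridization had a median difference of -0.23, each of the 18 being lower in the knockout, and 18S ribosomal RNA read 0.47 to 0.67 higher there at its 3 control probe sets. Over the 11295 genes measured on both arrays the median difference, knockout minus wildtype, was -0.05, and 59.8% of these genes lay below 0. The pooled SD of differences between probe sets of 1 gene was 0.199 log2 units. It measures how far probe sets disagree on the same RNA samples and holds no variation between arrays or cultures, which 1 array per genotype cannot give.

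Across the members, most signals were close on the arrays and a single gene stood apart. At least 2-fold lower in the knockout was 1 of 9 members, Taf15, against 0.266% of all measured genes, and 0 of 9 was 2-fold higher, against 0.0708%. The same gene was the only member at least 1.5-fold lower (1.61% of all measured genes), and 0 of 9 was 1.5-fold higher (0.832%). A gene was represented by its probe set with the highest mean signal. The other 8 genes differed by -0.32 to -0.01, and 7 of the 9 were within the pooled SD of 0.199. All 9 differences were below 0, where 59.8% of all measured genes were too, and the signs for Sfpq, Rbm14 and Tardbp turned positive under all 3 of the other array scalings (median difference set to 0, quantile and loess). The median over the members was -0.08, beside -0.05 over all measured genes, and with the median difference set to 0 it was -0.02 beside 0.01. Over all genes, 30 were at least 2-fold lower and 8 at least 2-fold higher, a split of 78.9% lower that became 64.7% after quantile normalization, 67.6% after loess centring and 69.4% with the median difference set to 0. In bulk RNA, fewer cells of a type and less RNA per cell cannot be told apart.

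**Figure D1:**
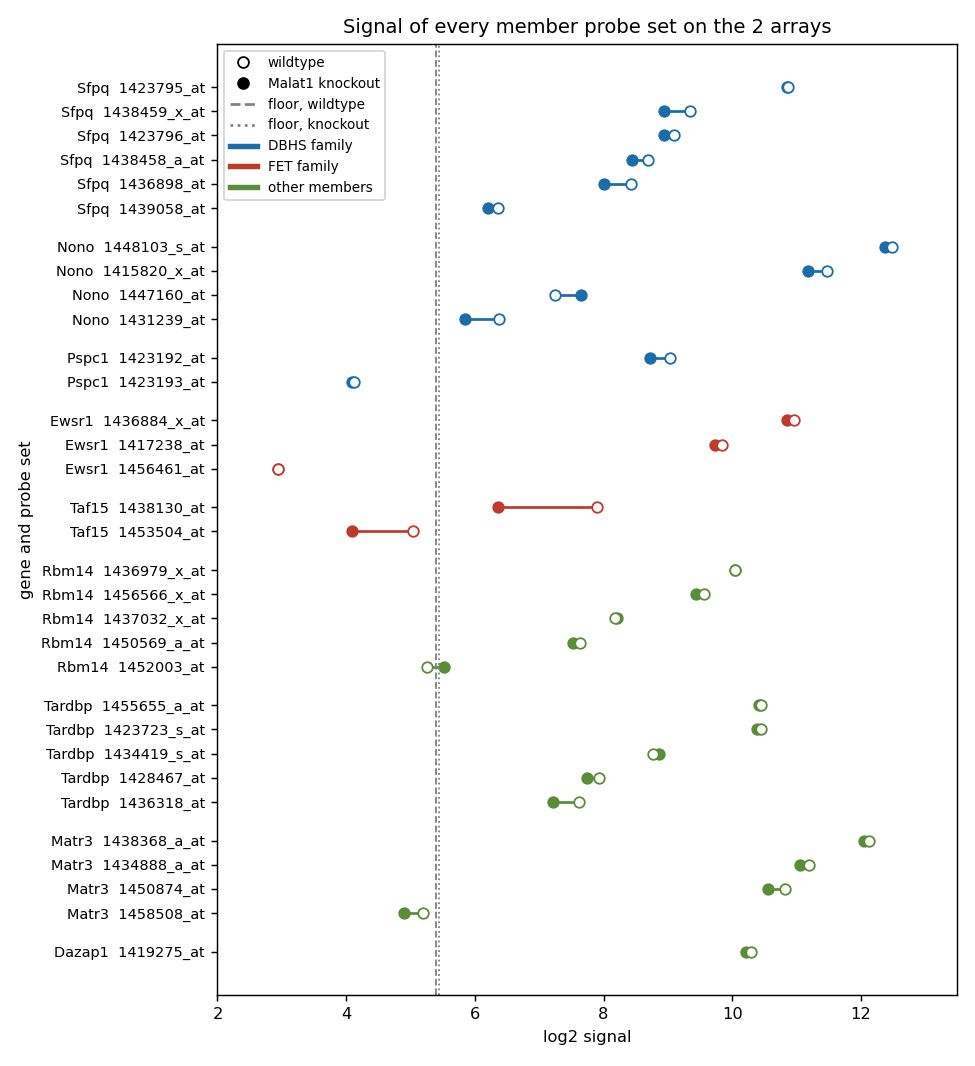
Log2 signal (horizontal axis) of each of the 32 probe sets (vertical axis, by gene), with the wildtype array as open circles, the knockout array as filled circles and each array's floor as a vertical line. The widest gaps are those of the 2 Taf15 probe sets, both with the knockout on the left, and the Nono probe sets point both ways.

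**Figure D2:**
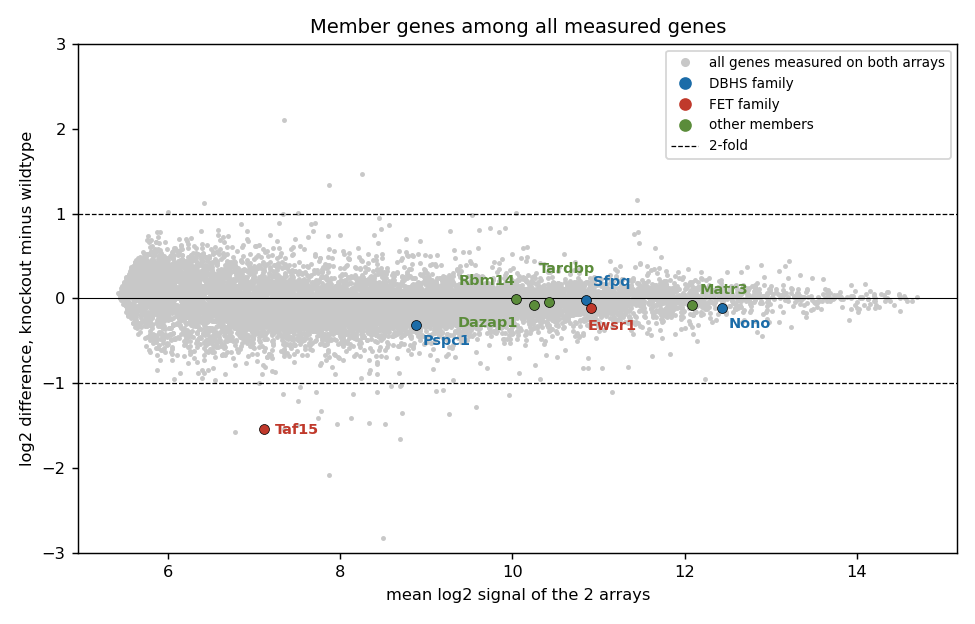
Log2 difference, knockout minus wildtype (vertical axis), against the mean log2 signal of the arrays (horizontal axis) for all 11295 measured genes (grey) and the 9 members (coloured by family, representative probe set). Taf15 lies at -1.54, beyond the dashed 2-fold line, and the other 8 members lie between -0.32 and -0.01.

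Taf15 encodes a FET protein that associates with the general transcription factor TFIID and with RNA polymerase, and it enters paraspeckles. Its brighter probe set, 1438130_at, read 7.89 on the wildtype array and 6.35 on the knockout array, a difference of -1.54 log2 units (2.90-fold lower). The wildtype array was the higher one, and both values were above the floor. Its second probe set, 1453504_at, read 5.03 and 4.09, a difference of -0.94 in the same direction, but both values were under the floor, so it gives no measured fold. In the ranking of 11295 genes the brighter Taf15 value stood 6th from the lowest difference. The brighter Taf15 difference was -1.47 with the median difference set to 0, -1.44 after quantile normalization and -1.44 after loess centring. With 64 added to the linear signals it was -1.05, since the knockout signal is dim. Both Taf15 probe sets are of the plain type (_at), designed to match a single transcript.

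Ewsr1 encodes the other FET protein here, which binds RNA and takes part in transcription and splicing. Its brightest probe set, 1436884_x_at, read 10.97 on the wildtype array and 10.85 on the knockout array, a difference of -0.11. Its next, 1417238_at, read 9.85 and 9.73, a difference of -0.12. These probe sets differed from each other by 0.0049, a smaller gap than in 2905 of 2960 genes with 2 measured probe sets. The last Ewsr1 probe set, 1456461_at, was under the floor and was listed at the same value, 2.94, on both arrays, as were 2.69% of all non-control probe sets. Within the FET family the arrays thus showed a 2.90-fold lower signal for Taf15 and 1.08-fold lower for Ewsr1, without a test of that gap.

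The DBHS genes had small differences that were mostly below 0. Of their 11 measured probe sets 10 were lower in the knockout, with a median of -0.24, against 61.7% of all 19187 measured probe sets with 1 symbol and a median of -0.06 over those. These figures hold for the deposited values. The Sfpq probe set 1423795_at turned to 0.04, 0.01 and 0.02 with the median difference set to 0, quantile normalization and loess centring. Of the 11, 6 are of Sfpq, and the median over the 3 genes was -0.11. Probe sets of 1 gene share an RNA sample and a transcript, so that these 11 are no replicates.

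Sfpq encodes the splicing factor proline- and glutamine-rich, an essential partner of Nono. Its brightest probe set, 1423795_at, read 10.86 on the wildtype array and 10.84 on the knockout array, a difference of -0.02. Its other 5 probe sets lay further apart. The largest gap was at 1436898_at, with 8.42 and 8.01 (-0.42), followed by 1438459_x_at with 9.34 and 8.93 (-0.40) and 1438458_a_at with 8.69 and 8.45 (-0.24). The probe sets 1423796_at and 1439058_at differed by -0.16 and -0.16. All 6 were lower in the knockout, the median over the 6 was -0.20, and the choice of the brightest probe set alone gives the smallest difference of the gene. The spread of 0.40 between Sfpq probe sets was exceeded in 31 of the 63 genes with 6 measured probe sets, Sfpq included.

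Nono encodes the DBHS protein that pairs with Sfpq and Pspc1, and its probe sets disagreed. The brightest, 1448103_s_at, read 12.48 on the wildtype array and 12.37 on the knockout array (-0.11), and 1415820_x_at read 11.48 and 11.18 (-0.30). The dimmer 1431239_at read 6.38 and 5.85, a difference of -0.52 (1.44-fold lower), while 1447160_at read 7.24 and 7.64, 0.40 higher in the knockout (1.32-fold). The spread of 0.92 log2 units between Nono probe sets was exceeded in 15 of the 470 genes with 4 measured probe sets, whose median spread was 0.33. The brightest pair are of the types _s_at and _x_at, which can read several transcripts or related sequences. Without those types the gene is represented by 1447160_at and its difference turns to 0.40. No direction is therefore given for Nono.

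Nono lies on the X chromosome, and the arrays differ in Xist. The 354 measured X-linked genes had a median difference of -0.02, with 53.7% below 0, and 10903 autosomal genes a median of -0.05, with 60.0% below 0. The X-linked median turned to 0.05, 0.05 and 0.04 with the median set to 0, after quantile normalization and after loess centring. Of the X-linked genes 32.5% had a lower difference than Nono at its brightest probe set. At their brightest probe sets Eif2s3x, Kdm6a, Kdm5c and Ddx3x, known to escape X inactivation, were higher by 0.59, 0.32, 0.31 and 0.09. These values lay on the same side of 0 as the Nono probe set 1447160_at alone. The 6 measured Kdm5c probe sets ran from -0.10 to 0.52. The part of the sex-linked difference in the Nono values was not tested.

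**Figure D3:**
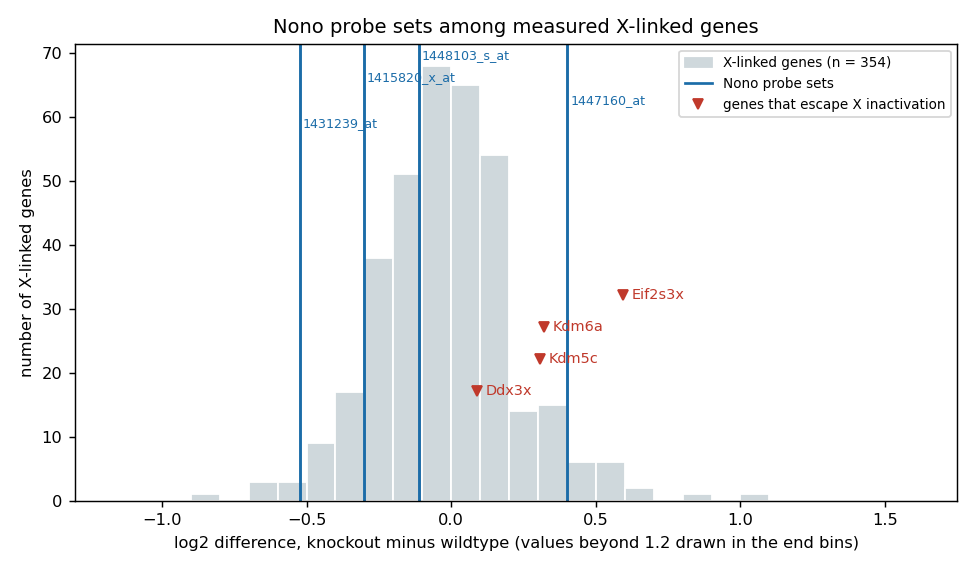
Histogram of the log2 difference, knockout minus wildtype, of the 354 measured X-linked genes (bars, number of genes), with the 4 Nono probe sets as vertical lines and 4 genes that escape X inactivation as triangles, whose height has no meaning. Of the Nono probe sets 3 lie below 0, from -0.52 to -0.11, and 1 lies at 0.40.

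Pspc1 encodes paraspeckle component 1, the DBHS protein from which the bodies were first described. Its brighter probe set, 1423192_at, read 9.04 on the wildtype array and 8.72 on the knockout array, a difference of -0.32 (1.25-fold lower). That was the second largest gene difference among the members, and 10.1% of all measured genes had a lower one. It was -0.26 with the median difference set to 0, -0.22 after quantile normalization and -0.23 after loess centring. The other Pspc1 probe set, 1423193_at, was under the floor on both arrays, at 4.12 and 4.09, so the gene rests on 1 measured probe set.

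Rbm14 encodes a coactivator with a prion-like domain that is needed for paraspeckle assembly. It lies on chromosome 19 as Malat1 does, with 68 annotated genes between them in RefSeq. Its brightest probe set, 1436979_x_at, read 10.05 on the wildtype array and 10.04 on the knockout array, a difference of -0.01. Of the other Rbm14 probe sets, 1456566_x_at read 9.56 and 9.44 (-0.12), 1437032_x_at read 8.18 and 8.21 (0.03) and 1450569_a_at read 7.63 and 7.52 (-0.11). The dimmest, 1452003_at, was above the floor in the knockout alone, at 5.26 and 5.52, at least 1.09-fold higher. The spread of 0.15 over the 4 measured probe sets was below the median of 0.33 for genes with as many.

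Tardbp encodes a protein that binds UG-rich RNA and regulates splicing, and that is found in paraspeckles under stress. Its brightest probe set, 1455655_a_at, read 10.45 on the wildtype array and 10.41 on the knockout array (-0.04), and 1423723_s_at read 10.45 and 10.38 (-0.07). The probe set 1434419_s_at was higher in the knockout, at 8.77 and 8.87 (0.10). The dimmer 1428467_at and 1436318_at were lower, at 7.93 and 7.74 (-0.19) and at 7.62 and 7.21 (-0.41). The spread over the 5 was 0.51, larger than in 68.8% of the 141 genes with as many measured probe sets.

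Matr3 encodes matrin 3, a nuclear matrix protein that binds RNA and interacts with Sfpq and Nono. Its measured probe sets read 12.13 and 12.04 (1438368_a_at, -0.08), 11.19 and 11.06 (1434888_a_at, -0.13) and 10.82 and 10.55 (1450874_at, -0.27). All 3 were lower in the knockout, and 1458508_at was under the floor on both arrays, at 5.19 and 4.90. Dazap1, which encodes an RNA-binding protein first found as a partner of the germ cell protein DAZ, has 1 probe set, 1419275_at. It read 10.29 on the wildtype array and 10.21 on the knockout array, a difference of -0.08, and 43.7% of all measured genes had a lower one. The brightest probe set of each gene lay near the median of all genes, -0.05, but Matr3 was at -0.16 with the mean over its measured probe sets. It was at -0.20 with the median over all 4 of its probe sets, 1458508_at under the floor included, and at -0.13 with the median over the measured ones.

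Over the 27 member probe sets measured on both arrays, 24 were lower and 3 higher in the knockout, where 61.7% of all measured probe sets were lower. The median was -0.12, against -0.06 over all measured probe sets. At least 1.5-fold lower was 1 of the 27 (2.25% of all), the brighter one of Taf15, which was also the 1 past 2-fold (0.266% of all). Leaving Taf15 aside, the other 26 lay between -0.52 and 0.40. The number lower was 21 with the median difference set to 0, 20 after quantile normalization and 21 after loess centring. The 61.7% holds for the deposited values only. The share of all measured probe sets that were lower under those scalings was not computed, so these counts have no background share. Under those scalings the medians over all measured genes were 0.01, 0.02 and 0.01. By type of probe set, 12 of 13 of the plain _at type were lower (62.5% of all 13542 of that type), with a median of -0.19 against -0.07. Of the _a_at type, which reads several transcripts of 1 gene, 5 of 5 were lower (61.1% of all 2960), with a median of -0.11 against -0.06. Of the _s_at type 2 of 3 were lower (67.8% of all 1379), with a median of -0.07 against -0.09. Of the 6 of type _x_at, which can pick up related sequences, 5 were lower (49.4% of all 1306), with a median of -0.12 against 0.00.

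**Figure D4:**
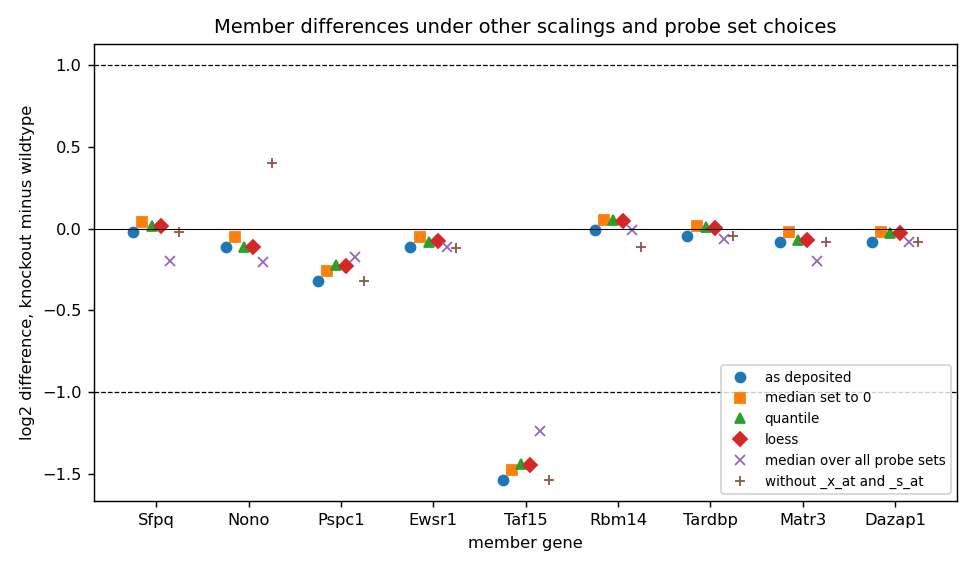
Log2 difference, knockout minus wildtype (vertical axis), of the 9 members (horizontal axis) under 6 ways of scaling the arrays or choosing the probe set, 1 symbol for each way, with dashed lines at 2-fold. Taf15 lies between -1.54 and -1.24 under all 6, and Nono moves from -0.21 to 0.40 with the probe sets used.

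The members were then set beside other proteins known in paraspeckles, from a list of 35 genes that holds none of the 9. Of these, 30 were measured on both arrays, 23 lower and 7 higher in the knockout, with a median of -0.11. The background is 59.8% of measured genes lower and a median of -0.05. The number lower and the median were 20 and -0.05 with the median difference set to 0, 19 and -0.02 with quantile normalization, and 20 and -0.04 with loess centring. The background moved as well: the median over all measured genes was then 0.01, 0.02 and 0.01 in turn. The 59.8% therefore holds for the deposited values only. The share of all genes that were lower under the other scalings was not computed, so those counts have no background share. At least 1.5-fold lower was 1 of the 30 (1.61% of all measured genes), and 0 of 30 was 1.5-fold higher (0.832%). The 1 was Runx3, a transcription factor of the Runt family, at 6.93 and 6.12 (-0.82), and its second probe set differed by 0.02. Ahdc1, an AT-hook DNA-binding protein, differed by -0.49, with another measured probe set at 0.71. Bcl11a, a zinc finger repressor, differed by 0.39, with other measured probe sets down to -0.38. Srsf10, an SR-like splicing factor, differed by -0.38, and its 4 measured probe sets ran from -0.41 to -0.12. Ss18l1, a subunit of a chromatin remodelling complex, and Cirbp, a cold-inducible RNA-binding protein, were higher by 0.28 and 0.27. The second Ss18l1 probe set differed by 0.02. None of these reached the size of the Taf15 difference. Neat1 itself, the RNA on which these proteins assemble, read 9.73 and 8.65 at its brighter probe set, 2.11-fold lower in the knockout, and 6.68 and 6.88 at the dimmer one.

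Proteins that bind, import or modify the members were read as well. Of 12 genes 11 were measured, 9 lower and 2 higher in the knockout, with a median of -0.08. Of all measured genes 59.8% were lower, with a median of -0.05. Of the 11, 0 passed 1.5-fold (1.61% of all measured genes were that much lower and 0.832% higher). Under those 3 scalings 7 of the 11 were lower, with medians of -0.02, -0.04 and -0.05, beside 0.01, 0.02 and 0.01 over all measured genes. The share of all genes that were lower under those scalings was not computed. Xrcc5, a subunit of the DNA repair protein Ku, differed by -0.35, and Ncoa6, a coactivator that binds the Rbm14 protein, by -0.29. Carm1, an arginine methyltransferase that modifies Nono, differed by -0.25, and Adar, which edits adenosine in double-stranded RNA, by -0.24. For the FET proteins, the import receptor Tnpo1 differed by -0.15 and the arginine methyltransferase Prmt1 by 0.13.

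**Figure D5:**
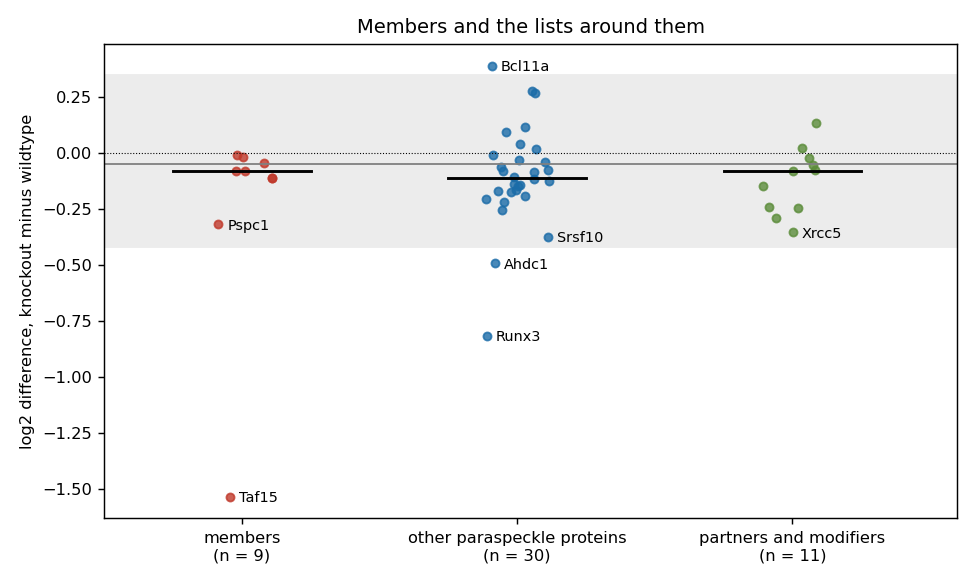
Log2 difference, knockout minus wildtype, of the 9 members, 30 other paraspeckle proteins and 11 partners and modifiers (points, spread sideways for sight), with each list's median as a black bar, the median of all measured genes as a grey line and their 5th to 95th percentile, -0.42 to 0.35, as a band. Taf15 lies at -1.54, far under the band, while the medians of the lists lie at -0.08, -0.11 and -0.08.

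Markers of other cell types also differed between the arrays, where 59.8% of all measured genes were lower in the knockout. Each marker was read at its brightest probe set. Another measured probe set had the opposite sign for Lcp1 (0.42), Csf1r (-0.21), Egfl7 (-0.25) and the fibroblast marker Vim (-0.07). Of 9 leukocyte markers, all measured, 8 were lower in the knockout, and their summed linear signal was 3965 in the wildtype and 3131 in the knockout. Of 10 epithelial markers 4 were measured on both arrays and all 4 were higher, with summed signals of 643 and 897 over the list, and Cdh1 was under the floor on both. The epithelial marker furthest apart was Cldn4, at 5.86 and 6.99 (2.18-fold). Of 8 endothelial markers the 4 measured were higher, with sums of 864 and 1361, and Pecam1, Cdh5, Tie1 and Tek were under the floor. The endothelial marker furthest apart was Emcn, at 1.47 log2 units higher in the knockout (2.77-fold). Of 7 neural and neural crest markers 5 were measured, 2 lower and 3 higher (sums of 968 and 1129). Of 8 skeletal muscle markers 5 were measured, 2 lower and 3 higher (sums of 3238 and 3704). Those muscle sums rest mostly on the brightest marker, Acta1, at 11.40 and 11.62. Des and Ckm were higher too (0.44 and 0.32), Mylpf and Myl1 were lower (-0.60 and -0.47), and Myod1, Myog and Tnnt3 were under the floor. Fibroblast markers summed to 96354 and 83946, with 8 of 10 lower, and none of 4 germ and pluripotency markers was measured. The part of these differences in the member values, that of Taf15 included, was not tested.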

How the data were processed

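Total RNA (100 ng) was labelled with biotin by a 3′ in vitro transcription kit and hybridized, per the labels' protocols. The authors deposited a table of 1 value for each probe set on each array, taken here as a log2 signal from its range, since the summarization, normalization and software were not given in the sources used here. Unknown normalization can shift small differences. Gene names came from the platform's annotation, leaving out probe sets that had several symbols or none, and chromosomes, gene order and promoters from RefSeq GRCm38.p6. The array's genome build was not given in the sources used here, so no gene coordinates are used beyond the promoter windows. Groups came from the genotype label. Values were computed with Python 3.11.15, pandas 2.3.3 and statsmodels 0.14.6. A difference is knockout minus wildtype, and no test was run with 1 array per group. Sizes of 2-fold and 1.5-fold were counted in place of a test. Named are all members, and from the paraspeckle list and the partner list the up to 6 measured genes with the largest difference and any past 1.5-fold. The markers Emcn and Cldn4 were named after their values were seen. The members, lists and sizes were chosen with earlier results of these data known. The fold counts were checked on simulated data with known changes, planted only in genes brighter than Taf15. The simulated noise was set to the pooled SD between probe sets, without variation between arrays or cultures. The check therefore does not cover dim signals or errors of that kind. The number of arrays limits the precision.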

Additional observations from a re-analysis of the deposited data

How the results depend on the processing

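No paired analysis was possible because there is only 1 array for each genotype. Of 353 values recomputed under 13 alternatives, 343 moved by less than the pooled SD between probe sets of 1 gene (counts by at most 1.5 times) and 10 moved further. A move under that SD counted as small even where the sign changed, as for Sfpq, Rbm14 and Tardbp under the 3 other scalings. A change of floor leaves the brightest probe set, and so a gene's difference, as it was. The 343 are thus no measure of how stable small differences are. The count of members past 2-fold, 1 as reported, became 0 with a 75th percentile floor, where Taf15 is no longer measured on the knockout array, and 0 at a size of 3-fold. Taf15 was lower in all 10 alternatives that measured it, from -1.54 to -1.05, and moved to -1.24 with the median over all its probe sets. Its dim probe set moved from -0.94 to -0.56 with 16 added to the linear signals and to -0.25 with 64. Sfpq moved from -0.02 to -0.23 with the mean over measured probe sets. Nono turned to 0.40 without probe sets ending in _x_at or _s_at. The member median stayed below 0 in all 11 alternatives that gave one, from -0.17 to -0.02, and those of the paraspeckle and partner lists did too. Over all genes, those past 2-fold (8 higher and 30 lower) became 15 and 51 without a floor, 4 and 17 with 64 added, 2 and 13 with a 75th percentile floor, 94 and 182 at 1.5-fold and 1 and 3 at 3-fold.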
